A study of Homo sapiens with 4 samples.

Results

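The 10 genes described here encode the 3 nitric oxide synthases (NOS1, NOS2 and NOS3), a NOS3-binding protein (NOSIP) and 6 enzymes that make, recycle or spend arginine, clear NOS inhibitors or make the NOS cofactor (ASS1, ASL, ARG2, DDAH1, DDAH2 and GCH1). They were chosen by name from 57500 gene identifiers, and all 10 had a row in every library. RNA-seq had been done on parental SUM159 cells (1 library) and on 3 NOS2KO clones, numbered 1, 5 and 6 (1 library each). SUM159 is an established triple-negative breast cancer line of the metaplastic type (MpBC). The clones came from SUM159 cells that received a NOS2 double nickase CRISPR plasmid and puromycin, and they were picked by iNOS immunoblot and a nitrite/nitrate assay. No drug treatment is given for any library, and all cells grew in DMEM with serum. Each clone descends from picked resistant cells and is represented by 1 culture, and nothing says that the parental cells went through transfection or puromycin. Loss of NOS2, plasmid, selection and cloning therefore cannot be told apart as sources of a difference between the clones and the parental cells. The comparison asks how the nitric oxide and arginine genes stood in NOS2KO cells.

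Nitric oxide synthases oxidise arginine to citrulline and nitric oxide, and need tetrahydrobiopterin, which GCH1 begins to make, together with calmodulin. ASS1 and ASL turn citrulline back into arginine, whereas arginases such as the mitochondrial ARG2 split arginine into ornithine and urea. The dimethylarginine dimethylaminohydrolases, of which DDAH1 is the better established enzyme, break down methylated arginines that block the synthases, and NOS2 (iNOS) is the isoform that inflammatory signals induce in many cells.

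The libraries held 90467395 (parental), 122171287 (clone 1), 101337366 (labelled clone 5) and 97362293 (clone 6) counts on genes. Levels are given as CPM, the count as a share of a fixed large total, after library sizes were scaled by TMM factors, which align the bulk of genes between libraries. A count of 3, the level below which a gene was treated as not detected, equalled 0.0332, 0.0262, 0.0281 and 0.0304 CPM in that order. All intervals and this floor cover counting error only. Of the receptor genes of a triple-negative line, ESR1 (9 to 79 counts) and PGR (0 to 3) were low or absent in every library. ERBB2 was not absent, at 48.3 CPM in parental cells and 55.6, 106 and 99.1 in the clones. CDH1 had 1 to 44 counts. VIM was abundant and higher in each clone, at 1655 CPM in parental cells and 3855, 2890 and 3339 in the clones. ZEB1 was present but lower in each clone, at 83.7 CPM in parental cells and 39.5, 50.0 and 57.8 in the clones. Neither VIM nor ZEB1 met the criterion given below. PTPRC alone of 9 marker genes of immune, endothelial, blood and liver cells met the criterion given below, while ALB had 1 to 3 counts, CD3E 0 to 8, HBB 0 to 19 and CD68 9 to 29. MARCO was highest in clone 1 (1345 counts, 56 to 76 in the others), CDH5 with the clone 5 label (372, 1 to 16 in the others) and VWF there too (405, 212 in clone 6, 19 in parental cells and 32 in clone 1), and PECAM1 stood at 16.1 CPM in parental cells and 7.06 to 13.9 in the clones. PTPRC, a leukocyte gene, stood at 4.45 CPM in the parental cells and 41.7 to 105 in the clones, and the summed level of the 9 markers was 21.8, 94.6, 121 and 53.5 CPM in the order above, and their part in the results below was not tested. In bulk RNA, fewer expressing cells and less RNA per cell give the same value.

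The targeted gene, NOS2 (ENSG00000007171, chr17:27756766-27800499, GRCh38), was at or under the floor in parental SUM159 cells as well as in 2 of the 3 clones. It had 2 counts in the parental library (0.0221 CPM, 95% interval 0.00268 to 0.0799), 3 in clone 1 (0.0262, 0.00539 to 0.0764) and 1 in clone 6 (0.0101, 0.000257 to 0.0565). The library labelled clone 5 had 18 (0.169, 0.10 to 0.267), the highest of the 4. The word labelled is kept for it for this reason, without saying that the label is wrong. A count over all exons of a gene does not show whether its coding sequence was edited, so these values do not check the knockout. The log2 ratio of the library labelled clone 5 to parental was 2.93 (0.87 to 6.08), and to clone 6 4.06 (1.39 to 9.44), while those of clone 1 and clone 6 to parental, 0.24 and -1.13, had intervals that include 0. NOS2 passed the filter on low counts only through the library labelled clone 5, and the fit gave a log2 fold change of 1.58 (SE 2.06, adjusted p = 0.786 by edgeR). The 4 named NOS2 pseudogenes together had 4, 2, 9 and 0 counts in the order parental, clone 1, labelled clone 5 and clone 6, about as few as the gene itself. Reads between such copies can be misplaced, so the NOS2 counts are uncertain. With the pseudogene counts added, the log2 ratios to parental were -0.61 for clone 1, 1.93 with the clone 5 label and -2.71 for clone 6.

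The other synthases were low too. NOS1, the neuronal isoform (ENSG00000089250, chr12:117208142-117452170), had 7 counts in the parental library (0.0774 CPM, 0.0311 to 0.160) and 0 in each clone. Set against the floor of 3 counts per library, and taking the 7 counts as they stand, this is at least 2.96-fold lower in clone 1, at least 2.75-fold lower with the clone 5 label and at least 2.54-fold lower in clone 6. With the counting error of the 7 included, the upper 95% limits of the log2 ratios were -0.87, -0.77 and -0.65. NOS1 was below the filter on low counts and was not tested in the main fit. With that filter lifted it met the criterion given below, but it did not pass after adjustment. NOS3, the endothelial isoform (ENSG00000164867, chr7:150990995-151014588), was the only synthase with over 100 counts in a library. It stood at 1.42 CPM in parental cells and 0.157 in clone 1, against 1.16 (labelled clone 5) and 2.26 (clone 6). The clones thus lay on either side of the parental cells, with clone 1 far below the others. The log2 ratios to parental were -3.17 (-3.97 to -2.46), -0.28 (-0.65 to 0.08) and 0.68 (0.36 to 1.00). In the fit the 3 clones differed from parental by a log2 fold change of -0.25 (SE 1.39, adjusted p = 0.956 by the edgeR quasi-likelihood test), and by 0.28 without clone 1. The opposite-strand neighbour ATG9B shares 786 of the 5953 exon bases of NOS3, and the strand setting of the counting is not given in the sources used here, so reads there cannot be assigned with certainty. Its own counts were 16, 7, 61 and 93.

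NOSIP (ENSG00000142546, chr19:49555711-49590262), a ubiquitin ligase named for its binding to NOS3, was among the abundant members. It measured 73.4 CPM in parental cells, and the clones 1, 5 (labelled) and 6 had 123.1, 60.0 and 86.7 CPM (mean 89.9 ± 31.7 SD, n = 3). The parental level lay within the range of the clones, and the fitted log2 fold change was 0.29 (SE 0.46, adjusted p = 0.827 by edgeR), or 0.0014 without clone 1.

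**Figure D1:**
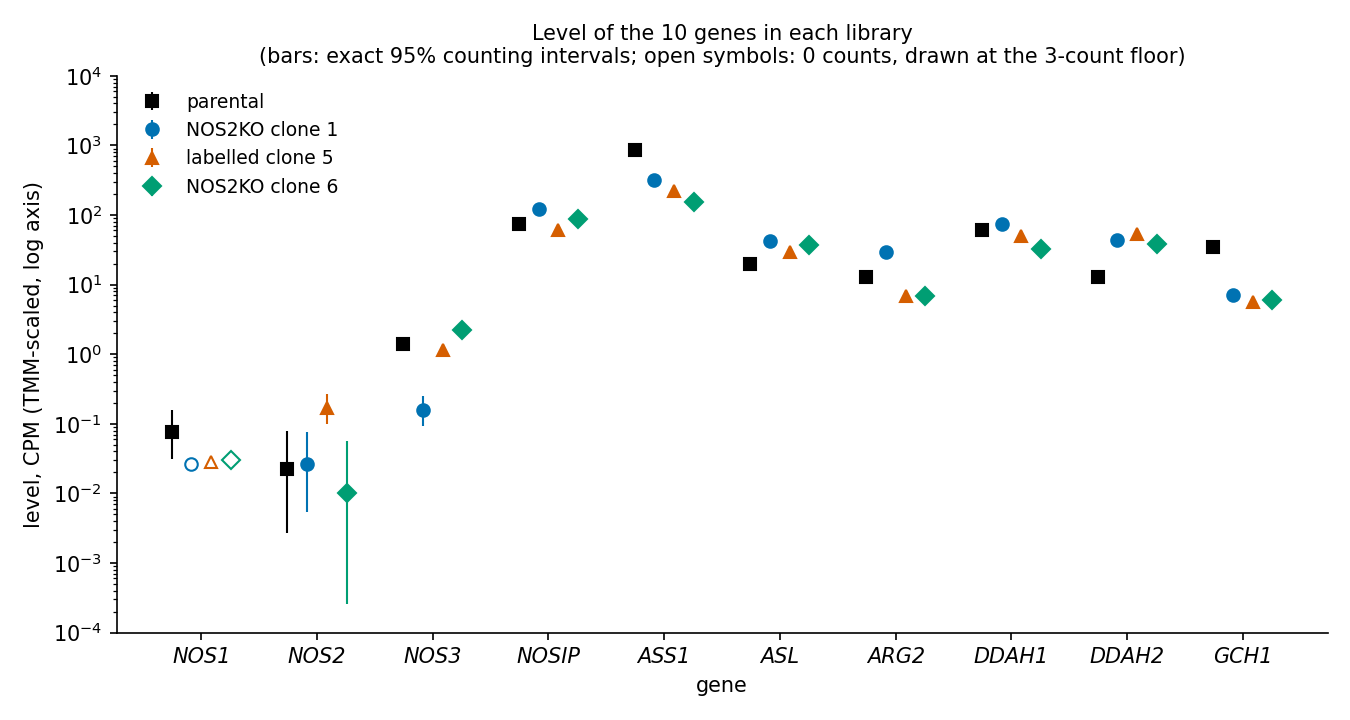
Level of each member in TMM-scaled CPM on a log axis, with 1 point per library bars for the 95% interval from the counts, and open symbols at the floor for 0 counts. The clones sit below parental for ASS1 (153 to 322 against 873 CPM) and GCH1 (5.68 to 7.15 against 34.6), and above it for DDAH2 (38.0 to 53.7 against 12.7).

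Each member was then tested in 1 fit over 22511 genes. Because there is 1 parental library, the error is the clone-to-clone spread, taken as that of parental cultures too, and relabelling 4 libraries gives no permutation p under 0.25. After adjustment no member passed 0.05, and 1 gene of the 22511 did (0.00444%). A looser criterion was p under 0.05 before adjustment with a fold change beyond 2-fold either way. It was met by 3 of the 9 members tested, ASS1 and GCH1 lower and DDAH2 higher. Among all genes tested, 5.34% met it lower and 4.24% higher. "Rose" and "fell" below refer to this criterion. By DESeq2's Wald test the same 3 members had an adjusted p under 0.05, where 2.40% of genes tested were lower and 2.47% higher. Of the 9 members tested, every clone was below the parental library in 2 (ASS1 and GCH1, where 30.5% of genes tested were so) and above it in 2 (ASL and DDAH2, 28.6%), counts near or below those shares.

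ASS1 (ENSG00000130707, chr9:130444929-130501274), argininosuccinate synthase, makes argininosuccinate from citrulline and aspartate and was the most abundant member. Its counts were 78917 in parental cells, 36975 in clone 1, 23947 with the clone 5 label and 15081 for clone 6, or 873, 322, 225 and 153 CPM. All clones lay well below parental, and they also differed among themselves beyond counting error, clone 6 being the lowest. The clones were lower by 2.71-, 3.89- and 5.71-fold, with log2 ratios of -1.44 (-1.46 to -1.42), -1.96 (-1.98 to -1.94) and -2.51 (-2.54 to -2.49). ASS1 fell by 1.90 on the log2 scale (SE 0.49, adjusted p = 0.332 by edgeR, adjusted p = 0.0286 by DESeq2). Its 11 named pseudogenes held 19 to 66 counts, which is 0.0748% to 0.178% of the ASS1 count. ASL (ENSG00000126522, chr7:66075798-66093558), argininosuccinate lyase, completes the step to arginine and measured 19.5 CPM in parental cells and 42.2, 29.1 and 37.2 in the clones. Every clone was above parental, by 2.17-, 1.49- and 1.91-fold, but the fitted log2 fold change of 0.89 (SE 0.33, adjusted p = 0.444 by edgeR) did not meet the criterion. The 2 enzymes of the recycling step stood on opposite sides of the parental level in each clone. Within a library, per base of exon, the ASS1 to ASL ratio was 47.0 (44.8 to 49.3) in parental cells, but 8.0 (7.76 to 8.24), 8.09 (7.79 to 8.40) and 4.31 (4.16 to 4.47) in the clones. AC068533.4, on the same strand, shares 563 of the 3195 exon bases of ASL. Reads there cannot be assigned with certainty, so the size of these ratios is less certain than their intervals show.

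The stretches before the start sites of ASS1 and ASL, taken from RefSeq on GRCh38.p14, are printed because these genes stood in opposite directions. Positions count back from the start site, -1 being the base before it, and only bases outside exons of the deposited table are shown. In the second ASS1 window (chr9:130444711-130444928, plus strand, -250 to -33) an E-box, CACGTG, lies at -71 and is in capitals. The ASL window (chr7:66075569-66075797, plus strand, -250 to -22) held none of the 4 motifs searched, and so did the first ASS1 window.
ASS1: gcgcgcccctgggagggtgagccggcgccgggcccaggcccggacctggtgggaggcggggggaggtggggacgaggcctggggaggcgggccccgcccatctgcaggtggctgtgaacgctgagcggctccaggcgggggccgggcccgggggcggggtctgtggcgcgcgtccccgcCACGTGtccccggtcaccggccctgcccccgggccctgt
ASL: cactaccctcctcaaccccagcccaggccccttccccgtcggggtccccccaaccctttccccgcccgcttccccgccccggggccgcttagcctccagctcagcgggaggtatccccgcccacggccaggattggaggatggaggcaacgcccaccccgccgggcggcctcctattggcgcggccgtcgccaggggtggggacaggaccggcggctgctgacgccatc
The motifs were searched on both strands in the 250 bases before the start, and were found in 6.34% (CACGTG, E-box), 6.57% (TGANTCA, AP-1), 1.65% (TGACGTCA, CRE) and 3.14% (TGATGNAA, C/EBP-ATF) of 35116 RefSeq windows. A match describes the letters and is no evidence of binding.

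ARG2 (ENSG00000081181, chr14:67619798-67651720) did not move alike in the clones. It measured 12.9 CPM in parental cells and 29.5 in clone 1, but only 6.85 with the library labelled clone 5 and 6.91 with clone 6. Clone 1 was above parental and the other two below it, with log2 ratios of 1.19 (1.10 to 1.29), -0.91 (-1.05 to -0.78) and -0.90 (-1.04 to -0.76). Clone 1 exceeded the library labelled clone 5 by 2.11 on the log2 scale and clone 6 by 2.09, whereas those last 2 differed by -0.01. The fitted value was 0.16 (SE 1.00, adjusted p = 0.961 by edgeR), and -0.90 without clone 1 (adjusted p = 0.222). VTI1B on the opposite strand shares 904 of the 2418 exon bases of ARG2 and had 8037, 12828, 7668 and 11288 counts, so some of the ARG2 count may belong to it. The window before ARG2 (chr14:67619670-67619797, plus strand, -250 to -123) is shown because it holds a cyclic AMP response element, TGACGTCA, in capitals at -172, and a second copy at -64 lies in an exon and is not printed.
ARG2: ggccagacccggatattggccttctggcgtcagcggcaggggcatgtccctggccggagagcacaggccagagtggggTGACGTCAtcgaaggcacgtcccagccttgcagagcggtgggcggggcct

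Among the other members, AP-1 (TGANTCA) was found at -111 before NOS1 and at -212 in DDAH1 window 3, and no motif of the 4 before NOS3, NOSIP or DDAH2. All 250 bases of each of the 3 DDAH2 windows lay in exons of DDAH2 in the deposited table. The search there thus covered no sequence outside its exons. RefSeq windows were matched for 8 of the 10 members, NOS2 and GCH1 being the others.

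The 2 dimethylarginine dimethylaminohydrolase genes also differed. DDAH1 (ENSG00000153904, chr1:85318481-85578363) measured 61.1 CPM in parental cells and 73.8, 49.7 and 32.3 in the clones, on both sides of parental, with a fitted log2 fold change of -0.23 (SE 0.51, adjusted p = 0.876 by edgeR) that became 0.019 without clone 6. DDAH2 (ENSG00000213722, chr6:31727038-31730617) measured 12.7 CPM in parental cells and 44.4, 53.7 and 38.0 in the clones. Every clone was above parental, by 3.49-, 4.22- and 2.99-fold, with log2 ratios of 1.80 (1.71 to 1.90), 2.08 (1.99 to 2.17) and 1.58 (1.49 to 1.68). DDAH2 rose by 1.83 on the log2 scale (SE 0.32, adjusted p = 0.310 by edgeR, adjusted p = 0.00101 by DESeq2). Per base of exon, the DDAH2 to DDAH1 ratio was 0.375 (0.352 to 0.400) in parental cells and 1.08 (1.05 to 1.12), 1.95 (1.87 to 2.02) and 2.12 (2.02 to 2.23) in the clones. CLIC1, on the same strand, shares 37 of the 2538 exon bases of DDAH2. AC092807.3, a noncoding gene on the same strand, shares 383 of the 4572 exon bases of DDAH1. Reads in shared bases cannot be assigned with certainty, and the intervals do not cover this. By these ratios DDAH1 was the more abundant per length in parental cells, and DDAH2 in the library labelled clone 5 and clone 6. In clone 1 the 2 genes were close, so their order there is uncertain.

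**Figure D2:**
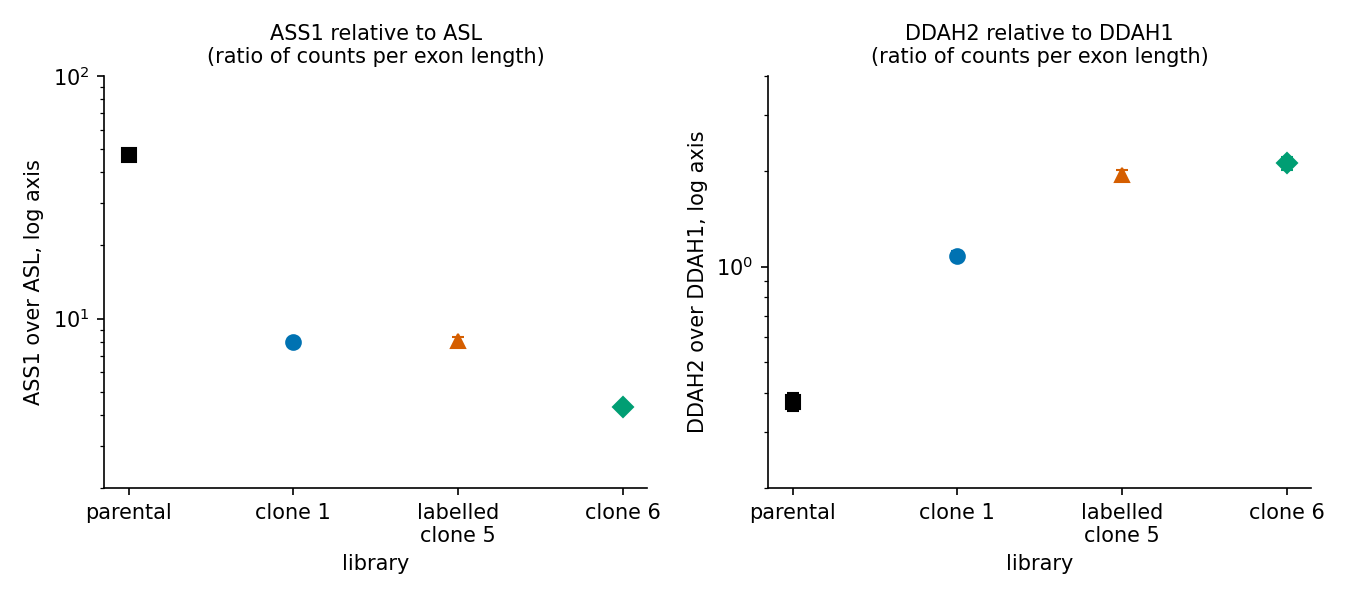
Ratio of ASS1 to ASL (left) and of DDAH2 to DDAH1 (right) in each library, in counts per exon length on log axes, with bars for the 95% interval from the counts, mostly within the symbols. The first ratio is 47.0 in parental cells and 4.31 to 8.09 in the clones, and the second is 0.375 in parental cells and 1.08 to 2.12 in the clones.

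GCH1 (ENSG00000131979, chr14:54842008-54902852), GTP cyclohydrolase, is the rate-limiting enzyme of tetrahydrobiopterin synthesis. It had 3127 counts in parental cells and 820, 605 and 592 in the clones, or 34.6 CPM against 7.15, 5.68 and 6.00 (mean 6.28 ± 0.774 SD, n = 3). The clones lay close together and 4.84-, 6.10- and 5.76-fold below parental, with log2 ratios of -2.27 (-2.39 to -2.16), -2.61 (-2.74 to -2.48) and -2.53 (-2.66 to -2.40). GCH1 fell by 2.46 on the log2 scale (SE 0.35, adjusted p = 0.259 by edgeR, adjusted p = 1.11e-06 by DESeq2). Of the members tested, it had the smallest adjusted p in both tools.

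**Figure D3:**
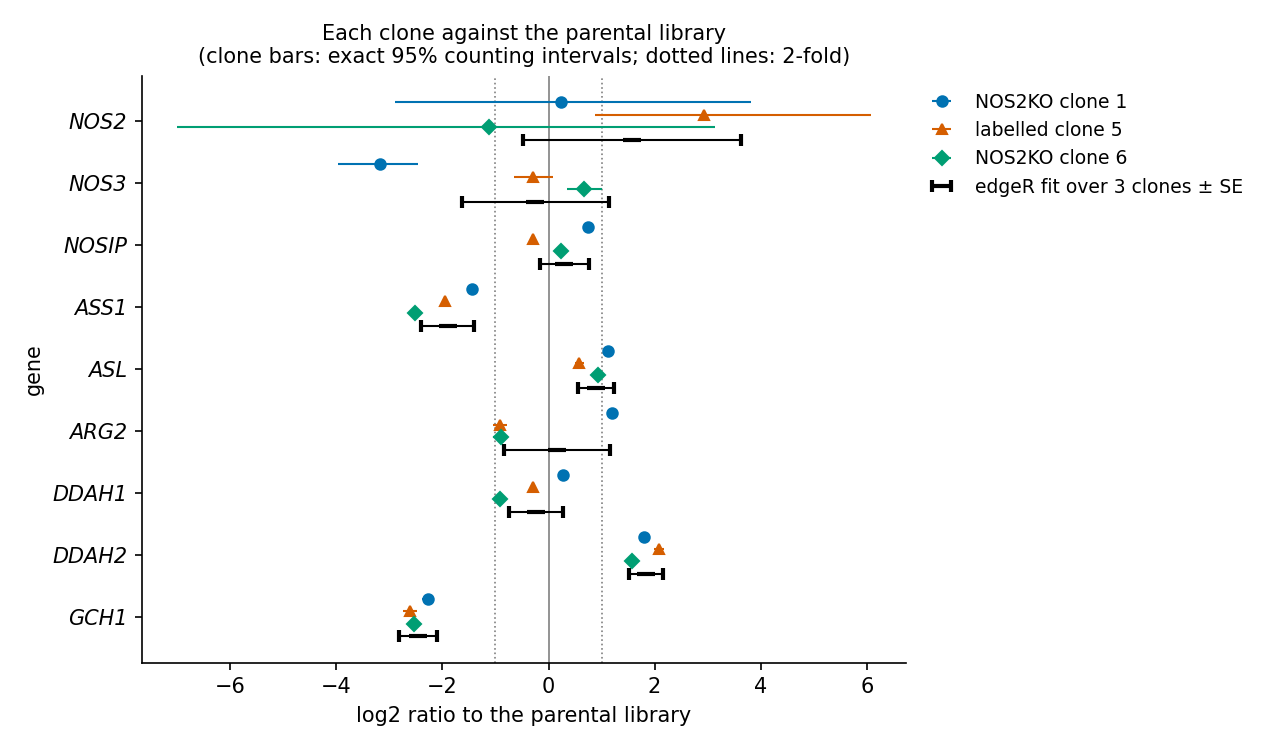
Log2 ratio of each clone to the parental library for the 9 tested members, with 95% intervals from the counts (coloured points) and the edgeR fit over the 3 clones with its SE (black), dotted lines marking 2-fold. The clones share a sign for ASS1, GCH1, DDAH2 and ASL, and lie on both sides of 0 for NOS2, NOS3, NOSIP, ARG2 and DDAH1.

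Levels of different genes were compared per length, as TPM, the same kind of share after division by the exon length in the files. The order by the median of 4 libraries was ASS1 (median 320.5), NOSIP (69.9), DDAH2 (56.0), DDAH1 (47.0), ASL (39.4), ARG2 (15.7), GCH1 (7.82), NOS3 (0.840), then NOS2 and NOS1 at or near the floor. ASS1 lay above all others in every library (183 to 1084 TPM). From NOSIP down to GCH1 the range of each gene over the libraries overlapped that of the next in the order, so these neighbours are not told apart, although the lowest NOSIP level (56.3 TPM) lay above the highest of DDAH1 (53.0) and ASL (43.4). NOS3 lay below GCH1 and above NOS2 and NOS1 in every library. DDAH2 ranked 7 in parental cells and 2 or 3 in the clones, while GCH1 ranked 4 in parental cells and 7 in each clone.

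The clones differed from each other more in some members than in others. The counts below are of the 9 members tested, so NOS1 is left out. NOS2, though near the floor, is kept, since the shares of genes tested keep such low genes. NOS2 itself differed more than 2-fold between the library labelled clone 5 and each of the other clones. Between clone 1 and the library labelled clone 5, 4 of the 9 (NOS2, NOS3, NOSIP and ARG2) differed more than 2-fold, against 31.5% of genes tested. Between clone 1 and clone 6, 4 of the 9 did (NOS3, ARG2, ASS1 and DDAH1, against 29.8%). Between the library labelled clone 5 and clone 6, 1 of the 9 did (NOS2, against 19.7%). Whether these counts differ from the shares was not tested. The 20 nearest protein-coding genes on either side of the members held 0 that met the criterion, where 5.34% of all genes tested met it lower and 4.24% higher. Beside NOS3, KCNH2 stood at 10.3 CPM in parental cells and 0.244, 54.9 and 16.2 in the clones, again with clone 1 lowest. On the other side of NOS3, ABCB8 stood at 37.8 CPM in parental cells and 50.8, 45.0 and 45.8 in the clones, with clone 1 highest.

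Of the 10709 genes that reached 10 CPM somewhere, those most like a member were found by the root mean square distance of the 3 clone to parental log2 ratios. Nearest to ASS1 were ZNF697 (0.06), RRP12 (0.085) and MXI1 (0.0959), to DDAH2 ID3 (0.0487), OSTF1 (0.0986) and CDH24 (0.143), and to GCH1 KCNQ5 (0.0649), E2F5 (0.0874) and PTGES (0.180).

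The wider pathway was described with 7 lists of genes around the members. Counts by the criterion stand beside the shares of all genes above, and the median log2 fold change of all genes tested was 0.10. Of the 6 tetrahydrobiopterin genes described, 0 met the criterion in edgeR, where 0 had an unadjusted p under 0.05, and 0 had an adjusted p under 0.05 in DESeq2 (median 0.11), although 1 met the criterion there before adjustment. GCHFR, the feedback regulator of GCH1, stood at 3.48 and 8.16, 7.63 and 6.84 CPM, with a log2 fold change of 1.11 (adjusted p = 0.449 by edgeR). The later enzymes PTS and SPR had -0.01 and 0.47. Of the 9 synthase partners 2 rose (median 0.89). The caveolar protein CAV1, which holds NOS3 inactive, stood at 90.1 CPM in parental cells and 527, 463 and 313 in the clones and rose by 2.27 (adjusted p = 0.323 by edgeR). CALM3, a calmodulin gene, rose by 1.66 (adjusted p = 0.368 by edgeR) and did not meet the criterion without clone 6. NOSTRIN and NOS1AP had 1.93 (adjusted p = 0.556) and 2.05 (adjusted p = 0.435 by edgeR).

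The transporters of cationic amino acids had the lowest median of the lists, -2.89 over the 5 tested of 7, and 2 of them fell. SLC7A1, the main arginine carrier of many cells, stood at 393 CPM in parental cells and 86.6, 42.2 and 30.7 in the clones, and fell by 2.89 (SE 0.64, adjusted p = 0.310 by edgeR). SLC3A2, the partner chain of several transporters, stood at 1471 CPM and 206, 158 and 137 and fell by 3.14 (SE 0.37, adjusted p = 0.259 by edgeR). SLC7A2 stood at 55.6 CPM and 11.9, 2.30 and 0.649, with a log2 fold change of -3.49 (SE 1.51, adjusted p = 0.443 by edgeR) that did not meet the criterion. The other two tested had -0.43 (SLC7A6) and -0.02 (SLC7A7, 13.7 CPM in parental cells and 1.30, 17.7 and 21.6 in the clones). Of 11 genes of ornithine and polyamines 1 fell, the spermine oxidase SMOX (322 CPM against 29.8, 42.3 and 57.2, log2 fold change -2.90, adjusted p = 0.261 by edgeR), with a list median of 0.08. ODC1, the first enzyme of polyamine synthesis, had 360 CPM in parental cells and 257, 95.2 and 59.0 in the clones (-1.39, adjusted p = 0.555 by edgeR), and OAT 0.80 (adjusted p = 0.531).

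In the urea cycle and arginine use list 8 of 10 were tested and 1 rose (median 0.09). GAMT, which completes creatine synthesis, stood at 16.7 CPM in parental cells and 69.8, 57.8 and 38.4 in the clones and rose by 1.72 (adjusted p = 0.342 by edgeR). The liver arginase ARG1 had 0 to 3 counts and OTC none, CPS1 had a log2 fold change of 0.64, and GATM had 33 counts in parental cells and 17, 8 and 4 in the clones (-2.03, adjusted p = 0.484 by edgeR). Of 10 methylarginine genes 9 were tested, 2 fell (PRMT3, -1.84, and PRMT8, -3.38, which had 74 counts in parental cells and 3 to 15 in the clones) and PRMT2 rose (1.06), with a median of -0.24. PRMT8 was not tested under a filter of 1 CPM, and PRMT2 lost the call without clone 1 or the library labelled clone 5. PRMT1, which makes most asymmetric dimethylarginine, and PRMT5 had -0.57 and -0.64, and AGXT2 had counts only in the library labelled clone 5, 5 in all. Of 11 nitric oxide targets and denitrosylation genes 1 rose (median 0.48). PDE5A, which degrades cyclic GMP, stood at 3.14 CPM in parental cells and 12.7, 13.6 and 12.8 in the clones and rose by 2.05 (adjusted p = 0.310 by edgeR). The soluble guanylate cyclase gene GUCY1A1 stood at 2.42 CPM in parental cells and 0.227, 20.9 and 3.59 in the clones, GUCY1B1 had 4 counts and 18, 45 and 13, and ADH5 had a log2 fold change of 0.25.

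**Figure D4:**
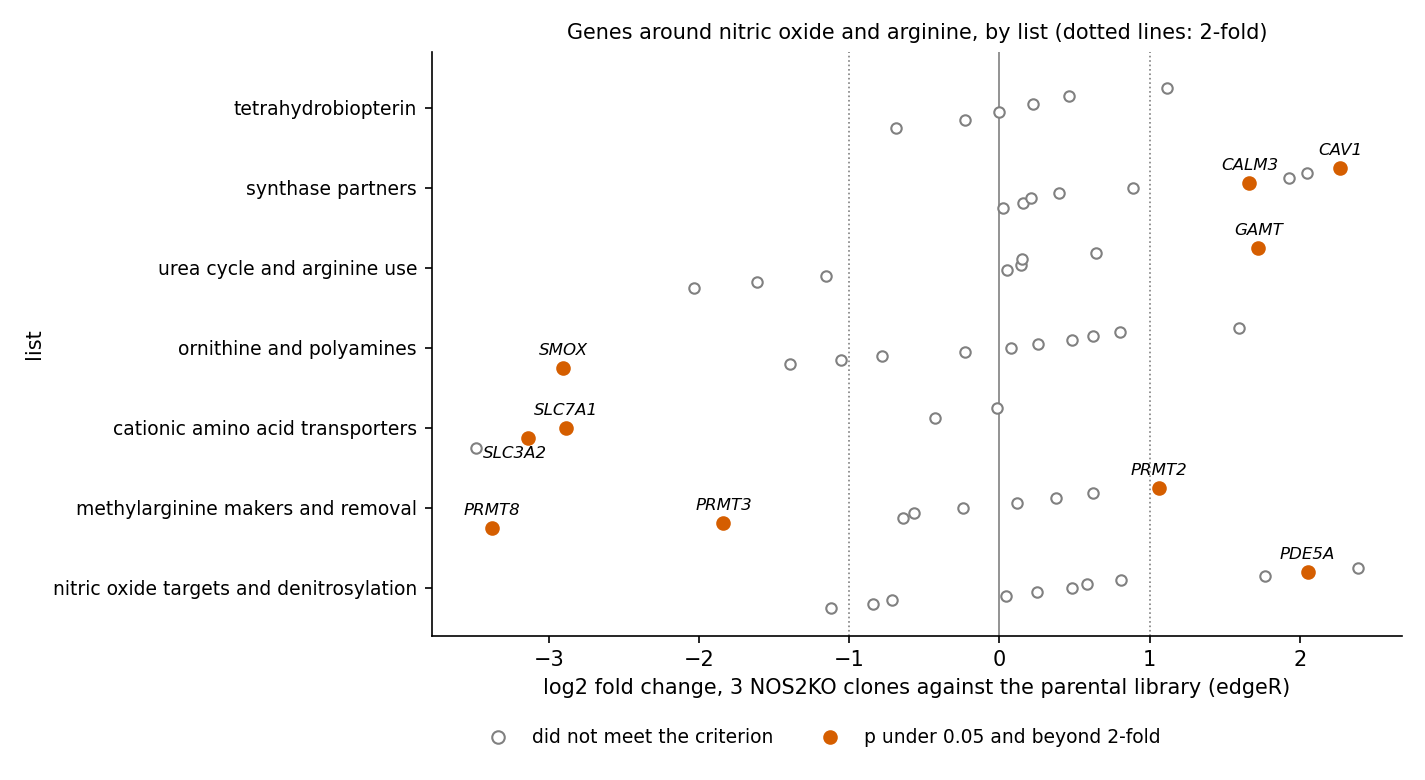
Fitted log2 fold change of the clones against the parental library for each tested gene of the 7 lists, 1 point per gene, filled and named where the criterion was met, with dotted lines at 2-fold. Filled points on the left are SMOX, SLC7A1, SLC3A2, PRMT3 and PRMT8, and those on the right are CAV1, CALM3, GAMT, PRMT2 and PDE5A.

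**Figure D5:**
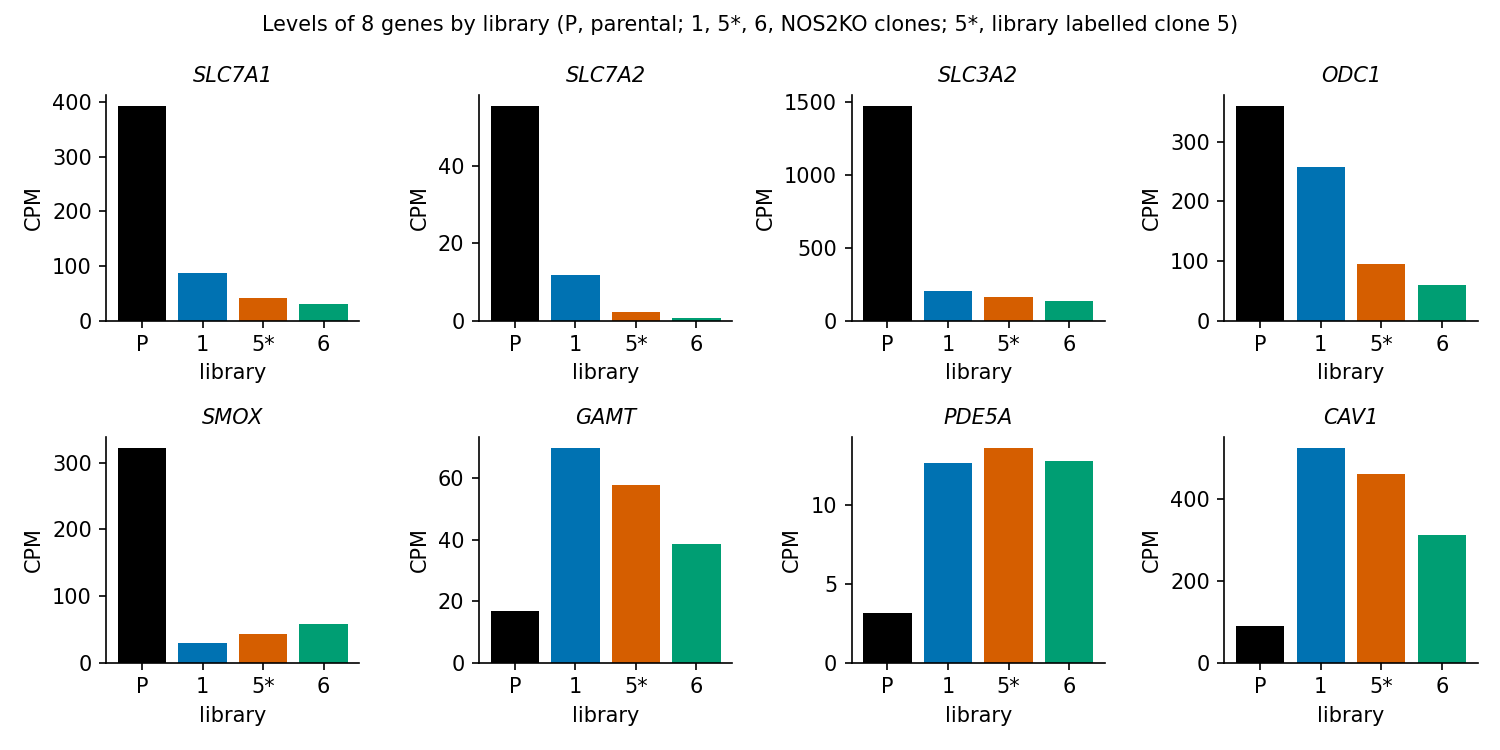
Level in CPM (linear axes from 0, 1 bar per library, no error bars) of 8 genes of the lists, chosen after their values were seen, in parental cells (P), clones 1 and 6 and the library labelled clone 5 (5*). SLC7A1, SLC7A2, SLC3A2, ODC1 and SMOX are lower in each clone than in parental cells, though SLC7A2 and ODC1 did not meet the criterion, and GAMT, PDE5A and CAV1 are higher.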

How the data were processed

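The authors deposited raw counts per gene for each library, with no normalization. The submitters' processing notes name bcl2fastq 2.17, Trimmomatic 0.36, STAR 2.5.2b, featureCounts of Subread 1.5.2, DESeq2 and GRCh38, and the strand setting and annotation release are not given in the sources used here. Identifiers were matched to GENCODE release 29 for 56898 of 57500, of which 54784 had the same start and end. Counts without strand cannot separate a gene from an overlapping one on the other strand.

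The test set all clones against the parental library and used edgeR 4.0.16 under R 4.3.3 (filterByExpr, TMM, glmQLFit and glmQLFTest, Benjamini-Hochberg adjustment over the 22511 genes kept), with DESeq2 1.42.0 as an alternative. The fit had 2 residual and 2.75 prior degrees of freedom. The p-values measure only the spread between these clones. Ratios of single libraries carry exact Clopper-Pearson 95% intervals. The named genes were the members, their pseudogenes, overlapping and nearest genes, every gene of 7 lists that met the criterion, a fixed set of others in those lists, and the 3 genes most like each member that met the criterion. Members and lists were chosen with earlier results of these data known, and a result for 1 gene of the lists and 1 marker is not reported here. Other steps used Python 3.11.15 with pandas 2.3.3, scipy 1.17.1 and matplotlib 3.10.9. The scripts were tested on simulated data.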

Additional observations from a re-analysis of the deposited data

How the results depend on the processing

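Other scalings (RLE, upper quartile, library size only), filters, a robust dispersion, DESeq2, and leaving out each clone were tried, and a bias-adjusted quasi-likelihood fit was added after seeing the data. ASS1, GCH1 and DDAH2 met the criterion in all of them. With no filter NOS1 met it too, on 7 counts in the parental library and 0 in each clone, but did not pass after adjustment. Adjusted calls over all genes (1) were 6 with no filter, 1095 with DESeq2 and 5 with the bias-adjusted fit. Without any 1 clone the edgeR fit gave 0 adjusted calls, with 4609, 1689 and 1467 genes at an unadjusted p under 0.05 without clone 1, the library labelled clone 5 and clone 6. Higher calls (955) were 1591 with DESeq2 and ranged from 641 to 1791 with a clone left out, the latter without clone 1, and lower calls (1202) from 825 to 1608. With a clone left out, NOS3 (-0.25) ranged from -1.10 to 0.28 and ARG2 (0.16) from -0.90 to 0.51, both turning without clone 1, NOSIP (0.29) from 0.0014 without clone 1 to 0.54, and DDAH1 (-0.23) ranged from -0.57 to 0.019, turning without clone 6. With DESeq2, ASS1 (-1.88), DDAH2 (1.86) and GCH1 (-2.44) passed an adjusted p of 0.05 that they missed in edgeR, and over all settings, DESeq2 included, their adjusted p ranged from 0.0286 to 0.739, 0.00101 to 0.739 and 1.11e-06 to 0.726. The cause of these differences was not tested. The upper quartile scaling moved the median of all genes by 0.10 and took the lower calls from 55.7% to 47.1% of all calls. By DESeq2 the criterion was met by 1 tetrahydrobiopterin gene (0 in edgeR) and 2 of the polyamine list (1 in edgeR). No paired analysis was possible because nothing in the labels links the parental library to a particular clone. The 1 parental library sets what these data can show, and depth limits NOS1 and NOS2, whose counts are at or near the floor.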
